A study of Homo sapiens with 3 samples.

Results

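Collagen genes were compared between the glioma clones U87WT 5 and U87Mut 5 (U87WT and U87Mut). Every gene whose symbol is COL, a number, A and a number was taken, which gave 44 genes of 25006 with a named probe, and 57 of 58201 probes. A gene with several probes is represented by its brightest. The clones come from the U87 human glioblastoma cell line and were stably transfected with vectors for a fusion of green fluorescent protein and the IGF1 receptor, wild type (GFP-IGF1R, receptor labeled nuclear) in U87WT and mutant (GFP-IGF1R1025x-1100x-1120x, receptor labeled non-nuclear) in U87Mut. Each is 1 clone, and both keep the cell's own receptor. RNA of both clones was hybridized together on 3 Agilent arrays: cells in serum-free medium for 24 h (FBS-free), with 50 nM IGF1 for 24 h (IGF1), and with IGF1 and 0.5 µM OSI906, an inhibitor of the IGF1 and insulin receptors (IGF1 + OSI906). The medium label gives 500 µM for OSI906, where the title and the treatment protocol give 0.5 µM.

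Each condition has 1 array. Cy5 marked U87WT and Cy3 marked U87Mut on all 3, so that a difference between the clones and a difference between the dyes cannot be told apart for any gene. Values are log2 ratios of U87WT over U87Mut, where 0 means equal levels and 0.5 a 1.41-fold difference. An offset of 50 was added to both channels, which draws the ratio of a dim probe toward 0. The spread of 1 ratio, taken from the differences between arrays, was an SD of 0.144 to 0.182 over 27680 probes. Over 300 probes with 10 spots, spots of 1 probe on 1 array differed by a median SD of 0.0459 to 0.0519, but by a pooled SD of 0.0526 in FBS-free medium, 0.173 with IGF1 and 0.0575 with IGF1 + OSI906. The IGF1 array thus stood apart, and 27 spots there had a local Cy5 background above 1000, against 0 on the other arrays. For the mean ratio of a gene, limma was run across all 58201 probes (adjusted p under 0.05), a test in which each condition stands as a replicate of the clone difference.

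Collagens are extracellular proteins built of chains wound into a triple helix. Fibrillar collagens give tissue its tensile strength, network collagens form sheets such as the basement membrane, type VI forms beaded filaments, and fibril-associated collagens sit on fibrils and tie them to other matrix. The chains are hydroxylated, glycosylated and folded in the endoplasmic reticulum, trimmed after export and crosslinked outside the cell. In the brain, fibrillar collagen is scarce outside vessels and meninges, while glioma cells in culture can make it.

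Of the 44 collagen genes, 24 were well above background in both clones on all 3 arrays, 8 in some channels or arrays, and 12 in none. The last were COL2A1, COL3A1, COL4A3, COL4A4, COL6A5, COL6A6, COL11A1, COL13A1, COL17A1, COL19A1, COL25A1 and COL28A1, which include the chains of type II and type III collagen. The 8 were COL5A3, COL8A2, COL9A3, COL21A1, COL22A1, COL23A1, COL24A1 and COL26A1, and all of these were dim. Of these, COL24A1 was well above background in U87Mut on 1 array and in U87WT on 0. Its ratios were -0.11 in FBS-free medium, -0.02 with IGF1 and 0.02 with IGF1 + OSI906, which give no bound on a fold. COL22A1 and COL23A1 were above it in U87WT on 1 array and in U87Mut on 0, with no fold in that direction. None of the 4 transmembrane collagens (COL13A1, COL17A1, COL23A1 and COL25A1) was among the 24.

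In all, 10 of the collagen genes were higher in U87WT and none was lower: COL8A1, COL12A1, COL6A1, COL1A1, COL1A2, COL5A2, COL4A5, COL9A2, COL5A1 and COL27A1. This is 10 of 44 (22.7%), beside 6.99% of all genes called higher in U87WT, and 0 of 44 lower, beside 6.65% of all genes. The limma count at an unadjusted p under 0.05 was 11 higher and 0 lower. The share of all genes at that unadjusted limit is not given here, so this count and the later unadjusted ones have nothing to be read against. Among genes well above background the counts were 10 of 24 collagen genes higher, beside 11.0% of such genes, and 0 lower, beside 10.7%. By class, 5 of 11 fibrillar, 2 of 9 network, 1 of 5 beaded filament and 2 of 10 fibril-associated genes were higher, and 0 of the transmembrane genes, multiplexins and others. The median log2 ratio of the 24 measured collagen genes was 0.09 in FBS-free medium, 0.17 with IGF1 and 0.18 with IGF1 + OSI906, beside -0.01, 0.02 and -0.01 for all genes well above background. Without the FBS-free array the test called 2 collagen genes (COL1A2 and COL8A1), without the IGF1 array 9 and without the IGF1 + OSI906 array 1 (COL8A1). Calls over all probes also fell without the FBS-free array and without the IGF1 + OSI906 array, and rose without the IGF1 array. The collagen count was 1 with the background fitted on all spots and 2 on the deposited ratios. It was 0 with the scanner software's processed signals and 0 with median in place of loess normalization. Calls over all probes fell in each of these settings too, so a lower collagen count there is not particular to collagen genes. At an unadjusted limma p under 0.05, 13 collagen genes were higher and 2 lower with the processed signals, and 10 and 0 with median normalization.

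On single arrays, 7 collagen genes had a ratio above 0.5 in FBS-free medium, beside 4.07% of all genes. With IGF1 there were 6, beside 4.77%, and with IGF1 + OSI906 5, beside 3.59%. Below -0.5 there were 0 on each array, beside 3.77%, 2.93% and 3.48% of all genes. On the IGF1 array the split of 6 above and 0 below became 2 and 2 with the background fitted on all spots and on the deposited ratios, and 10 and 6 with the scanner software's processed signals. Those signals gave 17 above and 5 below in FBS-free medium and 11 and 5 with IGF1 + OSI906, and median normalization gave 4 and 1 in FBS-free medium. The shares of all genes under these alternatives are not given here. Their counts thus show how the split depends on the setting and are no result about collagen genes.

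**Figure D1:**
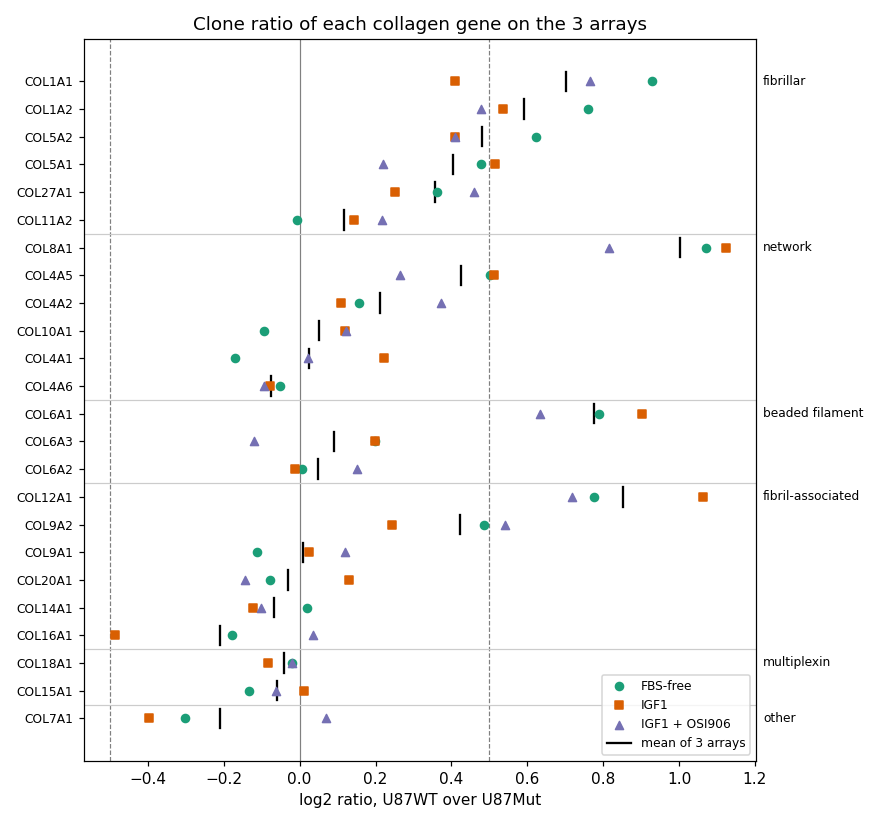
Log2 ratio of U87WT over U87Mut (x axis) for the 24 collagen genes well above background in both clones on all 3 arrays (y axis, by class), with 1 point per array and a bar at the mean. Dashed lines mark 0.5 and -0.5. The 10 called genes and COL4A2 have all 3 points above 0, of which COL5A2, COL27A1 and COL4A2 turn below 0 with IGF1 when the background is fitted on all spots, COL5A1 below 0 with IGF1 + OSI906 when its probes are averaged, and COL4A2 below 0 in FBS-free medium with median normalization.

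Sequence upstream of the start site is shown for the called genes that the promoter table holds, so that their promoters can be set side by side. Each run is the 150 bases before the start site, 5′ to 3′ on the gene's strand, from RefSeq on GRCh38.p14. Capitals mark a GC box (GGGCGG on either strand), and CCAAT and TATAAA were searched on both strands too.
COL12A1, chr6:75206054-75206203, minus strand: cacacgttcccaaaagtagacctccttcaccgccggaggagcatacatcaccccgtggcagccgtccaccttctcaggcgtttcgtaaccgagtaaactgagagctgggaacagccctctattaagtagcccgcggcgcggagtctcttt
COL5A1, chr9:134641653-134641802, plus strand: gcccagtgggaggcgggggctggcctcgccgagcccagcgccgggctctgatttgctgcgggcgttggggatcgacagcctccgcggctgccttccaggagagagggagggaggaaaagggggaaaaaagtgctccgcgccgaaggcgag
COL27A1, chr9:114155387-114155536, plus strand: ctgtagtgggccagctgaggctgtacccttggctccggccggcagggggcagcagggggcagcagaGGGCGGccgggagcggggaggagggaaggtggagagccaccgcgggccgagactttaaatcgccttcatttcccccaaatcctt
COL4A5, chrX:108439688-108439837, plus strand: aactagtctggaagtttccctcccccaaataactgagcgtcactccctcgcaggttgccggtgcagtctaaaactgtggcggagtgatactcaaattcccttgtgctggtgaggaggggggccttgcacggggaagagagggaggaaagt
COL9A2, chr1:40317287-40317436, minus strand: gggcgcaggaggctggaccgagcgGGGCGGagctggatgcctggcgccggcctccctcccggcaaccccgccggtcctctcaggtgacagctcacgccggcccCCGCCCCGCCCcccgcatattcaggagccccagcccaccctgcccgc

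Of these 5 promoters, 2 (COL27A1 and COL9A2) hold a GC box, and 0 hold CCAAT or TATAAA. Over the 32 collagen promoters in the table, 15 hold a GC box, 7 CCAAT and 3 TATAAA. Of all 27305 promoters of the same length, 36.7% hold a GC box, 24.4% CCAAT and 7.05% TATAAA. These counts describe letters in a window and name no bound factor.

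Type I collagen, the main fibrillar collagen of skin, bone and tendon, is made of the chains of COL1A1 and COL1A2. The median brightness of COL1A1 was 3872 in U87WT and 2038 in U87Mut in FBS-free medium, 2473 and 1206 with IGF1, and 2691 and 1418 with IGF1 + OSI906, beside a local background of 21 to 22 in either channel. After normalization its log2 ratio was 0.93 in FBS-free medium, 0.41 with IGF1 and 0.77 with IGF1 + OSI906 (mean 0.70 ± 0.11 SE, n = 3 arrays, limma adjusted p = 0.0273). With IGF1 the ratio was 0.11 with the background fitted on all spots, 0.07 in the deposited ratios and 0.88 with median normalization, so the order of the 3 arrays turns with the setting, while the ratio was above 0 in each.

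COL1A2 had a brightness of 21010 in U87WT and 11410 in U87Mut in FBS-free medium, 15990 and 6385 with IGF1, and 13790 and 7924 with IGF1 + OSI906. Its ratios were 0.76, 0.54 and 0.48 in the same order (mean 0.59 ± 0.07 SE, adjusted p = 0.0132). This probe has 10 spots per array, and the spots used agreed closely: the lowest and highest were 0.73 and 0.79 in FBS-free medium (9 spots), 0.51 and 0.61 with IGF1 (9 spots), and 0.44 and 0.51 with IGF1 + OSI906 (10 spots). Both chains of type I collagen were thus measured at a higher level in U87WT on all arrays, with 1 probe each.

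Type V collagen sits inside type I fibrils and sets their diameter. COL5A2 had ratios of 0.62, 0.41 and 0.41 in FBS-free medium, with IGF1 and with IGF1 + OSI906 (mean 0.48 ± 0.06 SE, adjusted p = 0.0157). With IGF1 its ratio was -0.05 when the background was fitted on all spots and -0.11 in the deposited ratios, so the direction on that array turns with the background correction. COL3A1, its neighbor in the genome and a fibrillar chain of skin and vessels, was at background in both clones.

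For COL5A1 the probes disagreed. The brighter gave 0.48, 0.51 and 0.22 (mean 0.40 ± 0.07 SE, adjusted p = 0.0373), and the other, also well above background, gave -0.05, -0.41 and -0.28 (mean -0.24, adjusted p = 0.161). When the probes of a gene were averaged, COL5A1 was no longer called and the other 9 genes remained. A direction for COL5A1 thus depends on the probe, and the transcripts each probe sees were not analysed here.

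COL27A1, a fibrillar chain known from cartilage, had ratios of 0.36, 0.25 and 0.46 (mean 0.36 ± 0.05 SE, adjusted p = 0.0244). Its other probe gave 0.13, 0.29 and 0.39, all above 0 but not past the test (adjusted p = 0.0721). With IGF1 the ratio of the brighter probe was -0.04 with the background fitted on all spots and -0.08 in the deposited ratios. COL11A2, a chain of the cartilage collagen type XI, was dim, with ratios of -0.01, 0.14 and 0.22 (adjusted p = 0.323).

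COL8A1 had the highest mean ratio of all 44 collagen genes, except with the background fitted on all spots and in the deposited ratios, where COL6A1 (0.79 and 0.80) was above COL8A1 (0.77 and 0.79). It encodes a short-chain network collagen known from vessel walls and the cornea. Its brightness was 1548 in U87WT and 752 in U87Mut in FBS-free medium, 832 and 252 with IGF1, and 999 and 524 with IGF1 + OSI906. The ratios were 1.07, 1.12 and 0.82 (mean 1.00 ± 0.07 SE, adjusted p = 0.00563), and with IGF1 the ratio was 0.43 with the background fitted on all spots and 0.41 in the deposited ratios. COL8A2, the other chain of type VIII collagen, was well above background in U87WT on 3 arrays and in U87Mut on 1, but dim. Its brightness was 34, 35 and 39 in U87WT and 28, 28 and 33 in U87Mut. Its ratios of 0.11, 0.06 and 0.07 are held near 0 by the offset and are not to be set against those of COL8A1.

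Type IV collagen, the network of the basement membrane, has 6 genes in pairs that lie head to head, and the pairs were measured unevenly. COL4A5 was higher in U87WT, with ratios of 0.50, 0.51 and 0.26 (mean 0.43 ± 0.06 SE, adjusted p = 0.0253; with IGF1 0.08 when the background was fitted on all spots), while COL4A6, next to it on the X chromosome and close to background, gave -0.05, -0.08 and -0.09 (adjusted p = 0.313). COL4A3 and COL4A4 were at background in both clones. COL4A2 gave 0.16, 0.11 and 0.37 (mean 0.21 ± 0.06 SE, adjusted p = 0.143), and COL4A1, dim on this array, gave -0.17, 0.22 and 0.02 (adjusted p = 0.911). With the scanner software's processed signals COL4A1 gave -0.95, 0.98 and -0.02. COL10A1, a network collagen of growing cartilage, gave -0.09, 0.12 and 0.12.

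COL4A1 and COL4A2 start from one short stretch and are read away from each other, and it is shown because both genes were measured and neither was called. The 126 bases between the start sites are written on the plus strand of GRCh38.p14, with CCAAT and the GC box in capitals.
COL4A1 and COL4A2, chr13:110307158-110307283: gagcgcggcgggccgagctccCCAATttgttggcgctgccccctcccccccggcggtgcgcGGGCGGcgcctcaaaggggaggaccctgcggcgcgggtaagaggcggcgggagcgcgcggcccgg

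Type VI collagen is assembled from the chains of COL6A1, COL6A2 and COL6A3, and only the first passed the test. COL6A1 had a brightness of 13360 in U87WT and 7290 in U87Mut in FBS-free medium, 11350 and 3612 with IGF1, and 10830 and 5706 with IGF1 + OSI906. Its ratios were 0.79, 0.90 and 0.63 (mean 0.77 ± 0.06 SE, adjusted p = 0.00688). COL6A2, which lies beside COL6A1 in the genome, gave 0.01, -0.01 and 0.15 by its brighter probe (adjusted p = 0.656) and 0.14, 0.24 and 0.44 by the other (adjusted p = 0.0881). With IGF1 the ratio of the brighter probe was -0.34 with the background fitted on all spots, -0.39 in the deposited ratios and 0.44 with median normalization. COL6A3 gave 0.20, 0.20 and -0.12 (adjusted p = 0.596), and its second probe 0.15, 0.11 and -0.01. The difference between COL6A1 and its partners was not tested.

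Among the fibril-associated collagens, COL12A1, which binds type I fibrils, had the highest ratio. Its brightness was 698 in U87WT and 414 in U87Mut in FBS-free medium, 602 and 190 with IGF1, and 556 and 311.5 with IGF1 + OSI906. The ratios were 0.78, 1.06 and 0.72 (mean 0.85 ± 0.08 SE, adjusted p = 0.00884), of which that with IGF1 was 0.35 with the background fitted on all spots and 0.34 in the deposited ratios. The second COL12A1 probe was called in the same direction with a smaller ratio of 0.40, 0.22 and 0.46 (adjusted p = 0.0301). COL9A2, a chain of the cartilage collagen type IX, was dimmer, with a brightness of 121 in U87WT and 81 in U87Mut in FBS-free medium and ratios of 0.49, 0.24 and 0.54 (mean 0.42 ± 0.07 SE, adjusted p = 0.0325), of which that with IGF1 was 0.03 with the background fitted on all spots.

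COL16A1 and COL7A1 were bright, and their mean ratios were the lowest of the measured collagen genes. With the scanner software's processed signals the dim COL15A1, COL4A6 and COL20A1 had lower means (-0.50, -0.28 and -0.25). With median normalization COL4A6 (-0.07) was below COL16A1 (-0.05). COL16A1, a fibril-associated collagen, gave -0.18, -0.49 and 0.03 (mean -0.21 ± 0.10 SE, adjusted p = 0.359), and its second probe -0.0037, -0.01 and -0.15. COL7A1, the chain of the anchoring fibrils that hold epithelium to connective tissue, gave -0.30, -0.40 and 0.07 (mean -0.21 ± 0.10 SE, adjusted p = 0.337). The ratios with IGF1 turned to 0.05 for COL16A1 and 0.09 for COL7A1 with median normalization, and that of COL16A1 with IGF1 + OSI906 to -0.06 when its probes were averaged. The remaining measured genes lay close to background: the fibril-associated COL9A1, COL14A1 and COL20A1 and the multiplexins COL15A1 and COL18A1, which line basement membranes, had mean ratios from -0.07 to 0.01. At this brightness the offset holds ratios near 0, so equal levels are not shown. With the scanner software's processed signals COL15A1 gave -0.96, 0.19 and -0.74.

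**Figure D2:**
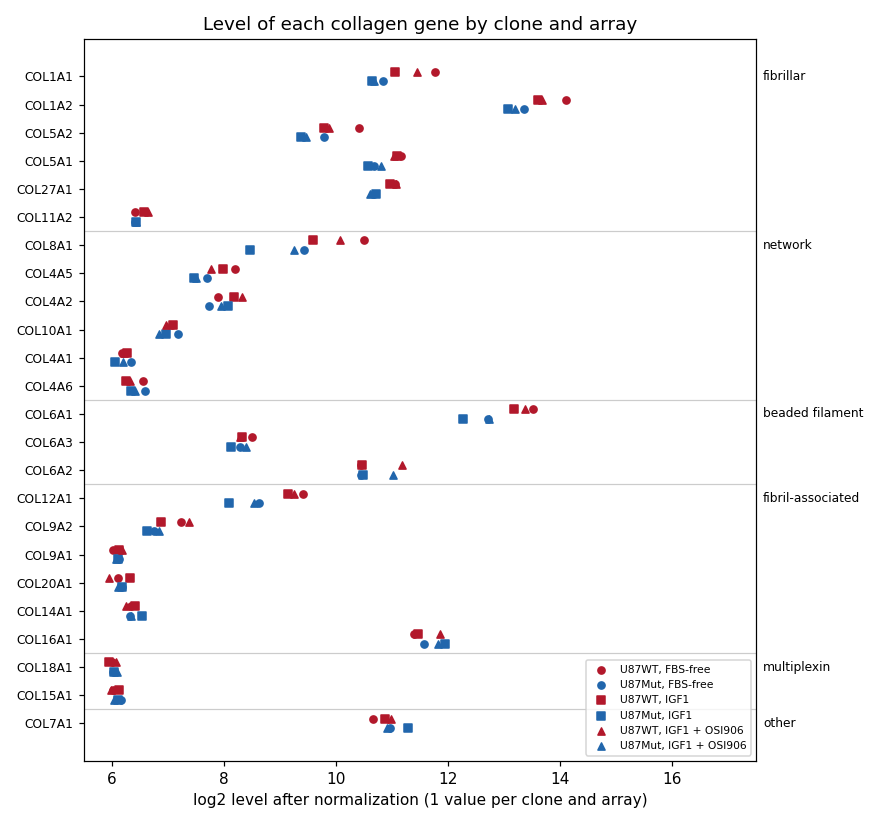
Log2 level of the 24 measured collagen genes (x axis) in U87WT (red) and U87Mut (blue), with 1 point per clone and array, by class. Levels of different genes come from different probes and are not to be set against each other. COL8A1, COL6A1 and COL12A1 are among the called genes that show the red points apart from the blue ones, and in COL5A2 the red and blue points overlap.

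No collagen probe lay on a spot marked as not uniform.

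**Figure D3:**
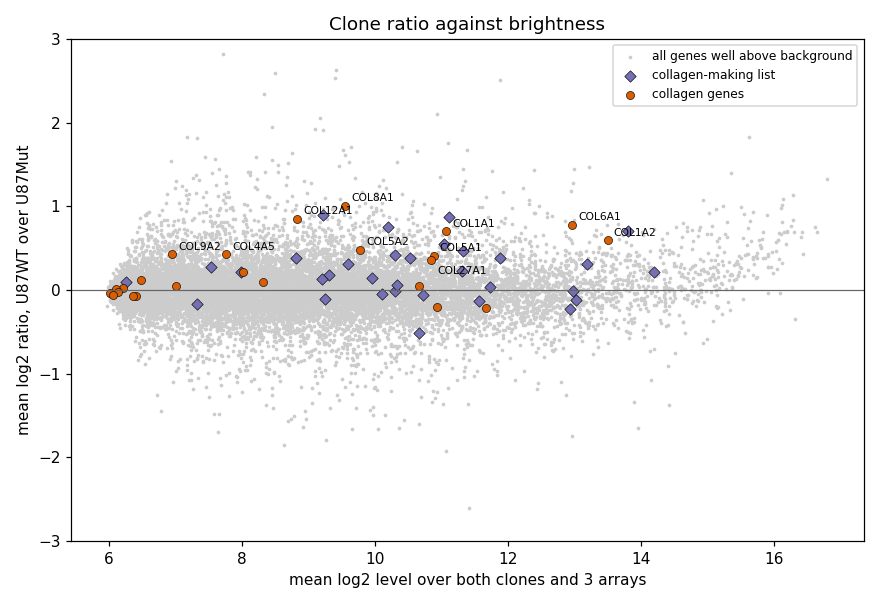
Mean log2 ratio over the 3 arrays (y axis) against the mean log2 level over both clones (x axis) for all genes well above background (gray), the collagen-making list (diamonds) and the collagen genes (circles), with the 10 called collagen genes named. They lie above 0 from dim (COL9A2) to bright (COL1A2).

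The level of a gene in 1 clone was also set between arrays, without a test, since each condition has 1 array. From FBS-free medium to IGF1, 4 collagen genes in U87WT had a difference below -0.5, beside 1.76% of all genes, and 0 above 0.5, beside 1.51%. They were COL8A1, COL1A1, COL5A2 and COL1A2, at -0.92, -0.71, -0.63 and -0.50. In U87Mut 2 were below -0.5, beside 1.03%, and 0 above 0.5, beside 0.568%: COL8A1 at -0.97 and COL12A1 at -0.55. With this processing, COL8A1 was thus lower with IGF1 by a similar amount in both clones, and its clone ratios were 1.07 in FBS-free medium and 1.12 with IGF1. In the same order the ratios were 1.06 and 0.43 with the background fitted on all spots. They were 0.79 and 1.48 with median normalization, so the similar amount depends on the setting. COL1A1 stood at -0.71 in U87WT and -0.19 in U87Mut, COL5A2 at -0.63 and -0.41, COL1A2 at -0.50 and -0.28, COL12A1 at -0.26 and -0.55, and COL6A1 at -0.33 and -0.44. The median over the 24 measured collagen genes was -0.05 in U87WT and -0.11 in U87Mut, beside 0.01 and -0.03 over all genes well above background. Without background correction 7 collagen genes were below -0.5 in U87WT, and with the scanner software's processed signals 13 in U87WT and 11 in U87Mut. The shares of all genes in those settings are not given here.

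From IGF1 to IGF1 + OSI906, 1 collagen gene in U87WT was above 0.5, beside 2.31% of all genes, and 0 below -0.5, beside 2.47%. In U87Mut 2 were above 0.5, beside 1.27%, and 0 below -0.5, beside 0.644%. COL6A2, whose clone ratio by its brighter probe was close to 0 with IGF1 only under this kind of background correction and loess, stood at 0.71 in U87WT and 0.55 in U87Mut. COL8A1 stood at 0.48 and 0.79, COL6A1 at 0.19 and 0.46, and COL12A1 at 0.10 and 0.45. These genes were above their IGF1 level in both clones. COL1A1 stood at 0.38 in U87WT and 0.02 in U87Mut, COL16A1 at 0.39 and -0.13, and COL7A1 at 0.10 and -0.37. Against FBS-free medium, COL8A1 with IGF1 + OSI906 was still at -0.44 in U87WT and -0.18 in U87Mut, COL5A2 at -0.53 and -0.32, and COL6A2 at 0.73 and 0.58. With the background fitted on all spots, 5 collagen genes in U87WT were above 0.5 from IGF1 to IGF1 + OSI906, and the share of all genes in that setting is not given here.

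**Figure D4:**
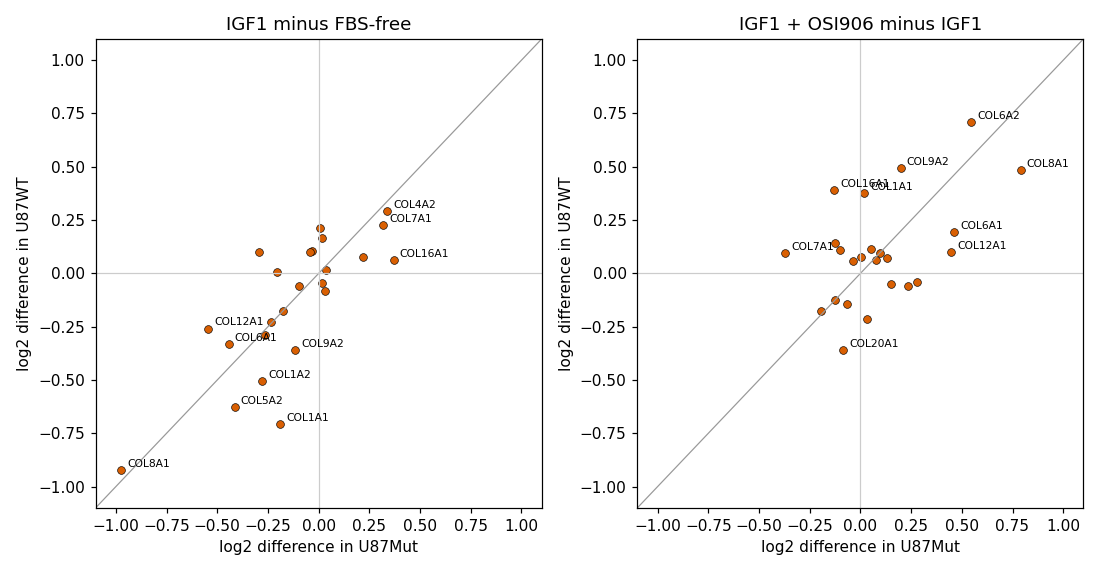
Difference in log2 level between arrays in U87Mut (x axis) and U87WT (y axis) for the 24 measured collagen genes, IGF1 minus FBS-free (left) and IGF1 + OSI906 minus IGF1 (right), with 1 value per gene and clone and the line of equal values. COL8A1 lies at the lower left on the left panel and, with COL6A2, at the upper right on the right panel.

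Of 38 genes that make, export, trim and crosslink collagen, 32 were well above background in both clones on all arrays. Of the 38, 10 were higher in U87WT (26.3%, beside 6.99% of all genes) and 2 were lower (5.26%, beside 6.65%). The median ratio of the 32 was 0.19 in FBS-free medium, 0.31 with IGF1 and 0.11 with IGF1 + OSI906. The counts of 10 and 2 became 2 and 0 with the background fitted on all spots and on the deposited ratios, 5 and 0 without the FBS-free array, and 1 and 0 without the IGF1 + OSI906 array. They were 0 and 0 with the scanner software's processed signals, where 13 and 2 had an unadjusted limma p under 0.05, and 0 and 0 with median normalization, where 9 and 0 did. Calls over all probes also fell in these settings, as given above beside the collagen counts.

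In the list, 4 genes were above 0.5 on all 3 arrays. PCOLCE, which speeds the removal of the C-terminal propeptide, had ratios of 1.05, 0.72 and 0.92 (mean 0.90 ± 0.07 SE, limma adjusted p = 0.0071). LOXL3, a lysyl oxidase that crosslinks chains, had 0.90, 0.96 and 0.75 (adjusted p = 0.00449). P3H2 and P3H3, of the prolyl 3-hydroxylase family, had 0.95, 0.65 and 0.66 (adjusted p = 0.0102) and 0.68, 0.71 and 0.74 (adjusted p = 0.00358). With the background fitted on all spots, PCOLCE with IGF1 was 0.17 and P3H2 0.16, and in the deposited ratios 0.14 and 0.10, so that of the 4 LOXL3 and P3H3 stayed above 0.5 on all arrays.

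The other 6 called higher were PCOLCE2, CREB3L1, LOXL1, P3H1, SERPINH1 and BMP1, all but SERPINH1 named after their values were seen. They include the protease that cuts off the C-terminal propeptide (BMP1), a transcription factor of collagen secretion (CREB3L1) and the collagen chaperone HSP47 (SERPINH1). SERPINH1 had ratios of 0.43, 0.24 and 0.24 (mean 0.31 ± 0.05 SE, adjusted p = 0.0386), and the other 5 had mean ratios from 0.21 to 0.55. COLGALT1, which adds galactose to hydroxylysine, was lower in U87WT, at -0.54, -0.57 and -0.44 (mean -0.52 ± 0.04 SE, adjusted p = 0.0074), as was LOXL2, another lysyl oxidase, at -0.25, -0.20 and -0.24 (adjusted p = 0.027). With median normalization LOXL2 turned to 0.41 with IGF1 and 0.02 with IGF1 + OSI906.

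P4HB, the subunit shared by prolyl 4-hydroxylases and itself a disulfide isomerase, gave 0.19, 0.36 and 0.10 (adjusted p = 0.118). MIA2, which helps load collagen for export, gave -0.20, -0.33 and 0.01 (adjusted p = 0.281). LOX, the founding lysyl oxidase, gave 0.18, -0.60 and 0.27 (adjusted p = 0.919), and with median normalization it was -0.10 in FBS-free medium and -0.18 with IGF1.

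**Figure D5:**
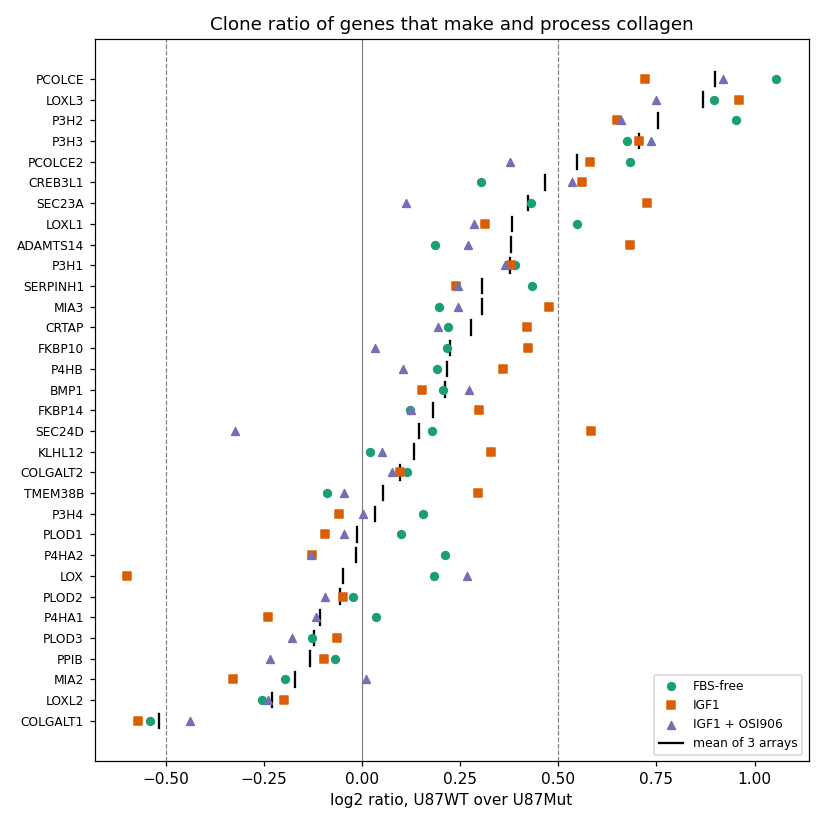
Log2 ratio of U87WT over U87Mut (x axis) for the 32 genes of the collagen-making list that were well above background in both clones on all arrays (y axis), with 1 point per array, a bar at the mean and dashed lines at 0.5 and -0.5. PCOLCE, LOXL3, P3H2 and P3H3 lie above 0.5 on all 3 arrays, PCOLCE and P3H2 not so with the background fitted on all spots, and COLGALT1 has the lowest mean.

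Of 10 collagen receptor genes, 7 were well above background throughout, and 1 was called higher in U87WT (10% of the receptors, beside 6.99% of all genes) and 0 lower (beside 6.65%), a share near that of all genes. At an unadjusted limma p under 0.05 there were 2 higher and 1 lower, the last being GP6, which was dim. The called gene was MRC2, which takes up collagen for breakdown, at a mean ratio of 0.28 (adjusted p = 0.021), named after its value was seen. The rest had mean ratios from -0.10 to 0.29.

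Some facts of the arrays bear on these values. The arrays had 50.1% to 52.8% of probes well above background in both channels and 0 saturated spots. The probe for IGF1R, the receptor on the vectors, had ratios of 0.07, 0.23 and 0.09 (adjusted p = 0.207), and whether it sees the vector's transcript is not known here. Of the 7 glioma and astrocyte markers, CD44, NES, VIM and OLIG2 were well above background in both clones on all arrays, and GFAP and SOX2 were at background in both. OLIG2 was dim, with a brightness of 32 to 36. S100B was well above background in U87WT on 2 arrays and in U87Mut on 0. VIM, which encodes the mesenchymal filament protein vimentin, had ratios of 1.15, 0.29 and 0.77 (mean 0.74, adjusted p = 0.075), and its part in the collagen ratios was not tested. Of the markers of other cell types, 2 of 3 leukocyte, 2 of 3 endothelial and 1 of 3 epithelial genes were well above background, with a brightness of at most 114 in any channel. The brightest of these was EPCAM, with ratios of 0.36, 0.53 and 0.20 (adjusted p = 0.0502), whose part was not tested either.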

How the data were processed

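The authors deposited, for each array, scanner output of Agilent Feature Extraction 12.0.3.1: per-spot intensity in Cy5 and Cy3 with local background, not normalized, processed intensity corrected by that software, and marks for background and outliers. They also deposited a table of log2 ratios, which the methods describe as corrected and normalized with limma. The median intensities were corrected by normexp (offset 50) fitted without spots marked as not uniform (384, 572 and 5 of 62976), normalized within arrays by loess and between arrays by Aquantile with limma 3.58.1 (R 4.3.3). Control spots (2075 per array) and outlier spots (95 to 117) were left out, and spots of a probe were averaged. Of 36770 probes with a RefSeq accession, 34892 were named through RefSeq (GRCh38.p14). Levels of a clone are the mean log2 intensity with the log2 ratio split evenly between the clones.

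Each mean ratio was set against 0 in limma by an intercept-only lmFit with eBayes over the 3 arrays, with Benjamini-Hochberg adjustment at 5% over 58201 probes, after a test on simulated data. Precision is limited by how few arrays there are, and nothing in the labels says whether separate cultures were used. The members, gene lists and limits were chosen with earlier results of these data known. Genes with values are those well above background for both clones on each array, and, from the lists of 38 collagen-making and 10 receptor genes, those past 0.5 on all arrays, the 3 highest and 3 lowest means, SERPINH1, P4HB and LOX. Alternatives changed the background correction, the normalization, the choice of probes, the limit of 0.5 and the arrays used. Probe sequences and protein sequences were not used here.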

Additional observations from a re-analysis of the deposited data

How the results depend on the processing

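Precision is limited by 1 array per condition in 1 dye orientation, and the 20 collagen genes that were not measured everywhere carry no usable ratio. Both clones share each array, so every ratio compares them within an array. Beyond this pairing within an array, no further paired analysis was possible, because each condition holds replicate 1 alone. A block for the replicate number could thus not be fitted. Offset 20 and scaling between arrays kept the same 10 calls, as did no background correction. The median ratio of genes well above background moved to -0.17, 0.30 and 0.05 (FBS-free, IGF1, IGF1 + OSI906) with median normalization, and ratios under that setting are relative to it. The 30 ratios of the 10 called genes were above 0 under all alternatives except 28 of 30 with the background fitted on all spots, 28 on the deposited ratios (COL5A2 and COL27A1 with IGF1 in both), and 29 with all probes averaged (COL5A1 with IGF1 + OSI906, -0.03). No ratio past 0.5 changed sign. The cause of the changes below was not tested. Counts of ratios or differences past a limit are given below without the share of all genes in the same setting.

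The count of collagen genes called higher by limma, 10, was 1 with the background fitted on all spots (COL6A1), 0 with processed signals, 0 with median normalization, 2 on deposited ratios, and 1 to 9 when leaving out each array. In these settings calls over all probes fell as well, except without the IGF1 array. The limma count called lower was 0 in every setting, with 0 to 2 genes at an unadjusted p under 0.05. Ratios above 0.5 in FBS-free medium, 7, numbered 17 with processed signals, 4 with median normalization and 14 with a limit of 0.5 SD of the array, and those below -0.5, 0, numbered 5, 1 and 5. With IGF1 those above, 6, numbered 2 with all spots, 10 with processed signals, 2 on deposited ratios and 16 with the SD limit, and those below, 0, numbered 2 with all spots, 1 with offset 20, 1 without background correction, 6 with processed signals, 2 on deposited ratios and 4 with the SD limit. With IGF1 + OSI906 those above, 5, numbered 11 with processed signals and 15 with the SD limit, and those below, 0, numbered 5 and 4.

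For the differences within a clone, whose alternatives were chosen after seeing the data, IGF1 minus FBS-free above 0.5 numbered 3 in U87WT and 2 in U87Mut with processed signals, and below -0.5 in U87WT 7 without background correction and 13 with processed signals, and in U87Mut 1 with all spots and 11 with processed signals. IGF1 + OSI906 minus IGF1 above 0.5 numbered 5 in U87WT with all spots, 3 without background correction and 7 with processed signals, and in U87Mut 1 with all spots and 9 with processed signals. Below -0.5 it numbered 2 in U87WT without background correction and 4 with processed signals, and 7 in U87Mut with processed signals.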
